A study of Homo sapiens with 6 samples.

Results

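Of the 33297 probe sets on the arrays, 12069 (36.2%) carried no gene symbol in the platform annotation and are the members described here. They were chosen by that annotation and, for the stretch taken out, by probe set number. The annotation left 12083 probe sets without a symbol, and 14 of these, which stand together in number order between the probe sets of MPLKIP and FAF2, were taken out by their numbers. For comparison, 19460 probe sets carried 1 symbol and 1754 carried several. The RNA came from extracellular vesicles (EVs) of Jurkat cells (WT), a line grown from a human T cell leukemia, and of JinB8 cells, a somatic mutant of Jurkat that lacks CD47 (CD47-). Each group had 3 arrays, labeled as replicates in cell culture. Both lines released their EVs into serum-free HITES medium, and the labels name 2 isolation kits, Exo-quick and Exo-spin, without saying which served which sample. The CD47- group is 1 mutant line, so loss of CD47 and other differences of that line cannot be told apart.

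EVs are membrane-bound particles that cells release with a cargo of protein and RNA. CD47 is a cell surface receptor for thrombospondin-1 and a ligand of SIRPα, known on T cells as an inhibitory signal receptor. A whole-transcript array reads each target with a probe set, a group of short probes whose signals are summarized to 1 value. Besides named genes, such arrays carry probe sets for unnamed or predicted transcripts and for controls, among them probes to exons and introns of commonly expressed genes and to spiked-in RNAs. The annotation used here gives no class, sequence or position for the members, so which of them are controls is not known here, and none is given a gene name. They are identified by probe set number.

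All values are log2 levels on the scale of the deposited table, and differences are CD47- minus WT EVs. Probes differ in how well they bind, so levels of different probe sets are only loosely comparable. The medians of all probe sets ranged from 5.08 to 5.14 over the 6 arrays, and over the members any pair of arrays correlated at r = 0.98 to 0.99, a description across probe sets. The CD47 probe set read 4.71 ± 0.02 in WT and 4.73 ± 0.19 in CD47- EVs (SD, n = 3), so it gave no check of the labels. As a gauge of background, 381 olfactory receptor probe sets, most of whose genes are known from olfactory tissue, had a median level of 5.45 and a 95th percentile of 6.79. Of 13 measured T cell markers 2 lay above that percentile, with CD7 highest at 7.75, against 0 of 13 measured B cell, myeloid, erythroid and endothelial markers and 1 of 4 epithelial ones, KRT18. Equal amounts of RNA were labeled, and in RNA of pooled vesicles fewer vesicles with a transcript and less of it per vesicle cannot be told apart.

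The members were on the whole dimmer than named probe sets but had the longer bright tail. Their median level was 4.63, with quartiles of 3.28 and 6.11, against 5.21 with quartiles of 4.39 and 5.89 for probe sets with 1 symbol. Levels below 4 were seen in 39.2% of members and in 15.95% of probe sets with 1 symbol. At the other end, 1927 members (15.97%) exceeded the olfactory receptor 95th percentile, against 999 probe sets with 1 symbol (5.13%). A mean level of 10 or more was reached by 302 members and by 21 probe sets with 1 symbol. The median over members was 4.64, 4.61 and 4.62 on the WT arrays and 4.61, 4.63 and 4.60 on the CD47- arrays. The groups overlapped in this median.

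The members fell in 4996 runs, a run being a stretch of members with no symbol-bearing probe set between them in number order. Most runs were short: 3365 held 1 member and 1495 held 2 to 4, while 135 held 5 to 19. One run, the very first in number order (7892501 to 7896738), held 4203 members. No run had between 20 and 99 members. The 4203 members of the first run and the 7866 others are given separately below because they differed in level and in spread.

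The tail of bright members lay in the first run. Its 95th percentile was 10.7, against 7.51 for the other members and 6.80 for probe sets with 1 symbol. Of the first run's members 26.1% exceeded the olfactory receptor 95th percentile, of the other members 10.6%, and 279 of the 302 members at 10 or above belonged to it. Both sets had many dim members, with 37.0% and 40.4% below 4. Replicate arrays also spread more in the first run: the median SD between replicates was 0.25, against 0.12 for the other members and 0.10 for probe sets with 1 symbol. This held in each level bin of 1 log2 unit from 2 to 10, and was widest at levels of 4 to 5, where the first run had a median SD of 0.36 and the other members 0.13.

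**Figure D1:**
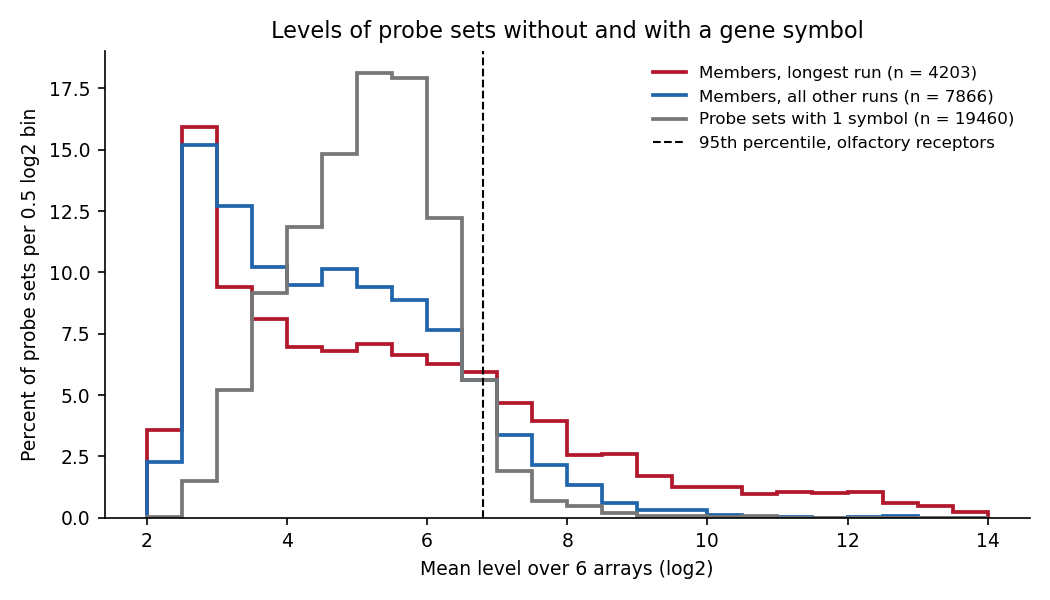
Mean level over the 6 arrays (log2, x axis) against the percent of probe sets in each bin of 0.5 log2 units (y axis), for the first and longest run of members, the members of all other runs and the probe sets with 1 symbol; the dashed line is the olfactory receptor 95th percentile, 6.79. Both sets of members peak below 3, the probe sets with 1 symbol between 5 and 6, and only the first run keeps a visible share above 10.

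The 8 brightest members were all in the first run and changed little between groups. The brightest, 7896631, read 13.93, 13.84 and 13.78 in WT and 13.70, 13.66 and 13.70 in CD47- EVs. Its WT arrays all lay above its CD47- arrays, by a difference of -0.17 that did not pass the test (adjusted p = 0.62, limma). The next, 7894647, read 13.79, 13.75 and 13.74 in WT and 13.72, 13.72 and 13.73 in CD47- EVs, a difference of -0.04. Over all 8 the 95% confidence intervals of the difference lay between -0.33 and 0.22, and the levels between 13.53 and 13.77.

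Outside the first run the brightest members lay between 11.5 and 12.9. They were looked up after the values were seen. The brightest, 7942791, stands between the probe sets of AAMDC and THRSP, the latter a regulator of lipid synthesis, and read 12.93, 12.94 and 12.46 in WT and 12.98, 12.97 and 13.03 in CD47- EVs. The next, 8165646, read 12.46, 12.60 and 12.13 in WT and 12.81, 12.97 and 12.72 in CD47- EVs. In it all 3 CD47- arrays were above all WT arrays, with a difference of 0.44 (95% confidence interval 0.13 to 0.74, adjusted p = 0.35, limma). The 8 brightest outside the first run had differences of 0.18 to 0.47, none of which passed, and 2 of them, 8112916 and 8174970, had identical values.

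Between CD47- and WT EVs, 112 members passed limma at an adjusted p under 0.05 over all probe sets, 106 higher and 6 lower in CD47- EVs. That is 0.928% of members, where 0.544% of all probe sets passed in either direction, 0.523% as higher and 0.021% as lower. Of probe sets with 1 symbol 54 passed (0.277%), 53 higher and 1 lower. The members that rose had a median difference of 1.08, and 62 of the 112 differed by at least 2-fold, a log2 difference of at least 1. Groups that did not overlap were seen in 13.3% of members, close to the 13.1% of all probe sets. The p-values measure only the spread between these samples, which may be technical, since the labels do not say that the replicates were separate cultures. Leaving out any 1 array lowered the 112 to between 33 and 88 calls, by over 1.5 times for every array but WT replicate 2, and with a variance estimated for each probe set alone, without sharing across probe sets, limma called 0, with 930 members at an unadjusted p under 0.05.

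The median difference was -0.01 over members and 0.0036 over probe sets with 1 symbol. RMA had normalized the arrays by quantiles, which holds the center of all probe sets near 0 (-0.0018 here), so these medians show only members against the rest, and centering on the olfactory receptor probe sets turned them to 0.043 and 0.060. Before that centering, 45.9% of members had a difference above 0. The 5th and 95th percentiles of the difference were -0.46 and 0.73 in the first run, -0.24 and 0.21 in the other members and -0.17 and 0.20 in probe sets with 1 symbol. At an unadjusted p under 0.05 (limma) stood 721 members with the higher level in CD47- EVs and 580 with the lower. That was 10.8% of members, against 8.04% of all probe sets (1667 higher, 1010 lower). The first run had 438 higher and 260 lower, the other members 283 and 320, and probe sets with 1 symbol 834 and 392. The 106 to 6 split thus belongs to the members past the adjusted threshold.

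Both sets of members contributed calls. The first run held 61 (56 higher, 5 lower; 1.45% of its members) and the other runs 51 (50 higher, 1 lower; 0.648%). In the first run 112 members differed by at least 2-fold and 32 of them passed, while in the other runs all 30 members that differed this much passed. The first run's wider replicate spread stood beside this: its median standard error of the difference was 0.16, against 0.09 in the other runs.

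**Figure D2:**
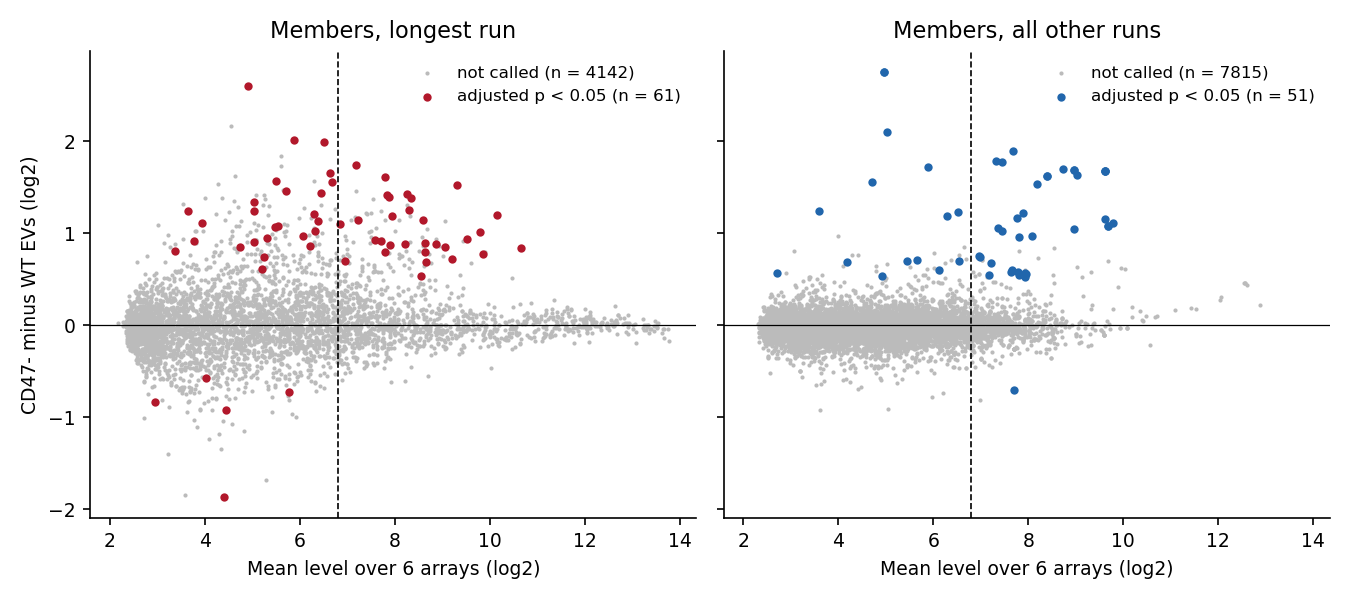
Mean level over 6 arrays (log2, x axis) against CD47- minus WT EVs (log2, y axis) for each member of the first run (left) and of all other runs (right); colored points passed limma at an adjusted p under 0.05, gray points did not, and the dashed line is the olfactory receptor 95th percentile. The 61 and 51 called members lie almost all above 0 and none lies above a level of 11, and the uncalled points of the first run fan out much more widely at low levels.

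Calls were concentrated at middle to high levels. Of members of the other runs, 11 of 6159 below a level of 6 passed (0.179%), 32 of 1633 from 6 to below 9 (1.96%), and 8 of 51 from 9 to below 10 (15.7%). At 10 and above 0 of 23 passed. The first run had 22 of 2709 (0.812%), 31 of 1091 (2.84%), 6 of 124 (4.84%) and 2 of 279 (0.717%) in the same level classes. Probe sets with 1 symbol had 7 of 15307 (0.0457%), 39 of 4106 (0.950%), 7 of 26 (26.9%) and 1 of 21 (4.76%), so their share was the lowest of the 3 below 6 and in the pooled class from 6 to below 9, and the highest from 9 to 10. Within that middle class it was already the highest from 8 to 9, at 10.4% against 5.23% for the other runs and 4.63% for the first run. Of the 112 called members 66 lay above the olfactory receptor 95th percentile and 25 below that list's median.

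**Figure D3:**
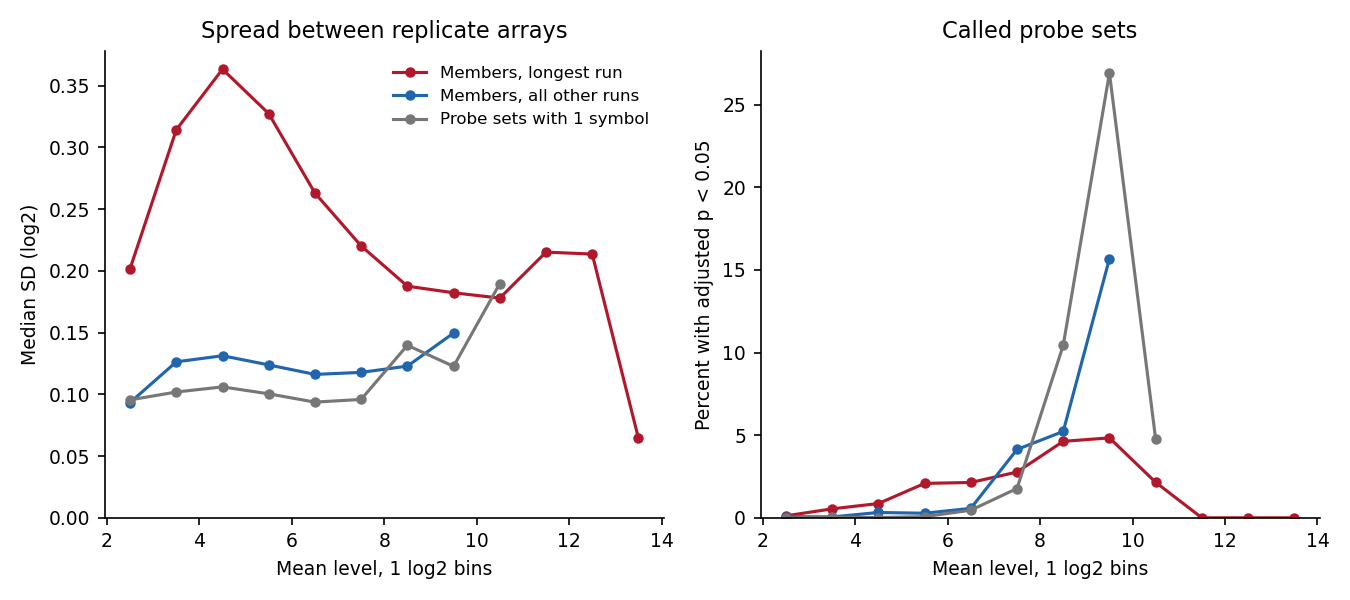
Median SD between replicate arrays (left, log2) and percent of probe sets with adjusted p under 0.05 (right), against mean level in bins of 1 log2 unit, for the first run, the other members and probe sets with 1 symbol; bins with fewer than 20 probe sets are not drawn. The first run has the widest spread up to a level of 10, and the called share of all 3 sets is highest between 9 and 10.

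The largest differences among the called members were seen in members with low WT levels. Member 7911339 read 3.47, 3.80 and 3.46 in WT and 5.80, 6.45 and 6.73 in CD47- EVs, and 8165698 had the same 6 values to every digit. The difference was 2.75 ± 0.23 (SE) on the log2 scale (adjusted p = 0.00688, limma). The WT arrays lay below the olfactory receptor median, and all 3 CD47- arrays lay between that median and the 95th percentile. Both groups were thus within the range of the background gauge, so no fold is given and its place among the rises is only that of the log2 differences.

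Member 7893424 of the first run had the smallest adjusted p. It read 3.58, 3.46 and 3.76 in WT and 6.21, 6.10 and 6.29 in CD47- EVs. The difference was 2.60 ± 0.10 (SE) on the log2 scale (adjusted p = 3.89e-04, limma), with the groups far apart and the arrays of each group close together. Here too the WT arrays lay below the olfactory receptor median and the CD47- arrays below its 95th percentile. Its call held without each array in turn and was lost with unshared variances, as were all calls (adjusted p = 0.16).

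Member 8165692, the first after FAF2 in number order, read 3.90, 4.16 and 3.89 in WT and 5.78, 6.37 and 6.10 in CD47- EVs, a rise of 2.10. Member 7894798 read 5.08, 5.13 and 4.36 in WT and 7.03, 6.72 and 6.87 in CD47- EVs, a rise of 2.02 that lost its call without CD47- replicate 3. Member 7895328 read 5.26, 5.88 and 5.35 in WT and 7.40, 7.26 and 7.83 in CD47- EVs, a rise of 2.00 that lost its call without WT replicate 3. In each of these the CD47- arrays were all higher than the WT arrays, which was a condition for naming a rise. Member 7894185 read 6.35, 6.35 and 6.23 in WT and 7.83, 8.08 and 8.26 in CD47- EVs, a rise of 1.75 with little spread among the WT arrays. The other 5 of the 12 largest rises, 8165700, 7911341, 7896748, 8165709 and 7896752, ranged from 1.70 to 1.90 and belong to runs described below.

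The 6 members that fell were 5 of the first run and 1 other. Member 7895713 read 5.38, 5.16 and 5.45 in WT and 3.47, 3.37 and 3.58 in CD47- EVs, and fell by 1.86 on the log2 scale (SE 0.10, adjusted p = 0.00256, limma). Member 7894675 read 5.04, 4.88 and 4.81 in WT and 3.93, 3.99 and 4.05 in CD47- EVs, and fell by 0.92. These calls held without each array in turn. All values of both members lay below the olfactory receptor median, so both falls were within the range of the background gauge. Members 7896304, 7895742 and 7893587 fell by 0.83, 0.72 and 0.57. The first lost its call without any 1 array other than WT replicate 3, the second without any other than WT replicate 1, and the third without any 1 array. Member 8099240, alone between the probe sets of MRFAP1L1 and CFAP184, read 8.06, 8.05 and 8.02 in WT and 7.24, 7.58 and 7.21 in CD47- EVs, and fell by 0.70 (adjusted p = 0.048, limma). It was the only fallen member above the olfactory receptor 95th percentile, and its call was lost without any 1 array other than CD47- replicate 2. Its nearest named probe sets differed by 0.12 and 0.04, neither past the threshold.

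**Figure D4:**
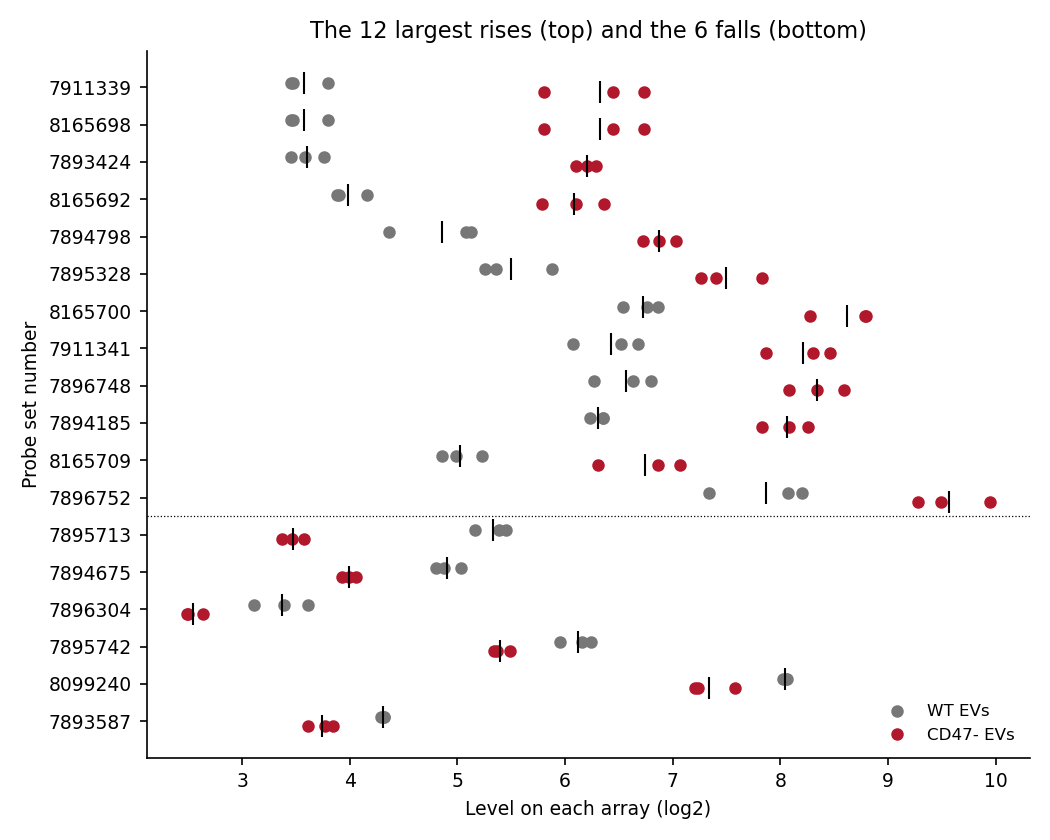
Level on each array (log2, x axis) of the 12 members that rose most (above the dotted line) and the 6 members that fell (below it), with 3 WT arrays in gray, 3 CD47- arrays in red and a tick at each group mean. The 18 members were named only if their groups did not overlap, so the gap between the groups is no separate result. The rows for 7911339 and 8165698 are the same because their 6 values are.

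Within runs, called members stood next to each other mainly in a few places. Outside the first run the 51 called members lay in 29 runs. Of these runs 7 held several called members, 29 in all, and 6 unbroken stretches of called members held 25. Runs of 1 member and of 2 to 4 members had called shares of 0.327% and 0.332%, while runs of 5 to 19 members had 3.17%, 28 of 883. Of these 28, the run at 8165692 held 9, that at 8180329 6 and that at 7911335 5. Many values in these runs were identical or nearly so, as described below, so the share does not count separate measurements.

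The longest stretch was 8165692 to 8165709, which follows the excluded probe sets and FAF2, a ubiquitin-binding protein of the endoplasmic reticulum whose own probe set rose by 1.73. The next named probe set on the other side, PLCXD1, differed by 0.10 (adjusted p = 0.85, limma). FAF2 is on chromosome 5 and PLCXD1 on chromosome X, so number order does not follow the genome here and does not place the run beside either gene. All 9 members of this run passed, with rises of 1.06 to 2.75 and adjusted p of 0.00535 to 0.0237. Their levels ran from 4.95 to 9.69. The brightest, 8165707, read 9.01, 9.39 and 9.04 in WT and 9.99, 10.33 and 10.35 in CD47- EVs. Of the 14 excluded probe sets themselves 13 passed, with a median difference of 1.72.

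The run 7911335 to 7911343 stands in number order between the probe sets of PGBD2 and LINC00115, both genes of chromosome 1. Its own position is not known here. All 5 of its members were called, with rises of 1.62 to 2.75. Member 7911337 read 8.79, 8.80 and 8.74 in WT and 10.09, 10.60 and 10.69 in CD47- EVs. The named probe sets on its sides differed by 0.04 and -0.01. Of its 5 members 4 had values identical to those of 4 members of the run after FAF2, so the calls of these 2 runs are in large part the same measurements listed more than once. Without WT replicate 3 the calls of 7911335, 7911341, 7911343, 8165694, 8165703, 8165705, 8165707 and 8165709 were lost. All of these but 7911343 and 8165703 were also lost without CD47- replicate 2 or 3, and all but these 2 and 8165705 without WT replicate 1.

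Identical values linked further places. Member 7973871, between AKAP6 and NPAS3 on chromosome 14, had the same 6 values as 7911337 and 8165696. Member 8113120, between KIAA0825 and MCTP1 on chromosome 5, had those of 8165707. Member 7896752 had those of 1 excluded probe set, and read 7.34, 8.20 and 8.07 in WT and 9.28, 9.94 and 9.49 in CD47- EVs. In all, 266 members (2.20%) had 6 values equal to those of another probe set, in 118 sets of 2 to 8 probe sets, and 1.88% of probe sets with 1 symbol did. Among the called members 12 had shared values, in 6 sets, and counting each set once left 106 called members.

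In some runs called members stood beside members that differed less. Of the called members named next, only 7973871 and 8113120 shared their values with another probe set. In the run 7973865 to 7973873, members 7973867 and 7973871 rose by 1.23 and 1.68, while the other 3 differed by 0.03 to 0.26. In the run 8113120 to 8113124 the first rose by 1.08 and the other 2 differed by 0.07 and -0.05. In 8114203 to 8114213, before PITX1, a homeobox transcription factor, members 8114211 and 8114213 rose by 1.05 and 1.24, and the 4 before them differed by -0.01 to 0.35. In 8013517 to 8013533, before NOS2, the inducible nitric oxide synthase, 8013521 and 8013523 rose by 0.75 and 1.55, and the other 7 differed by -0.51 to 0.32. Leaving out 1 array ended the calls of 7973867 and 8114213 for each array other than WT replicate 2, that of 8013521 for each other than CD47- replicate 1, and that of 8113120 for WT replicates 1 and 3 and CD47- replicates 2 and 3. The calls of 7973871, 8114211 and 8013523 held in all 6 such fits.

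A different pattern was seen in the run 8180329 to 8180335, which stands late in number order between the probe sets of BAGE2 and SLC35E2A. Its 7 members had nearly the same values without being identical, at most 0.48 apart on any array. Member 8180335 read 7.29, 7.46 and 7.30 in WT and 7.94, 7.95 and 7.97 in CD47- EVs. Of the 7 members 6 passed, with rises of 0.53 to 0.60, and the groups did not overlap in any of the 7. The remaining member, 8180330, differed by 0.54 (adjusted p = 0.057, limma). All 6 lost their calls without each array other than WT replicate 2, and without that array 8180333 and 8180335 kept theirs while the other 4 did not.

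The run 7896746 to 7896752 comes directly before the first named probe set, SEPTIN7P13. Members 7896746, 7896748 and 7896752 rose by 0.96, 1.78 and 1.70. Member 7896750 had a difference of 0.81 at a level of 3.06 (adjusted p = 0.20, limma), with groups that did not overlap. The call of 7896748 was lost without WT replicate 3, that of 7896746 without any 1 array other than CD47- replicate 1, and that of 7896752 without any 1 array.

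**Figure D5:**
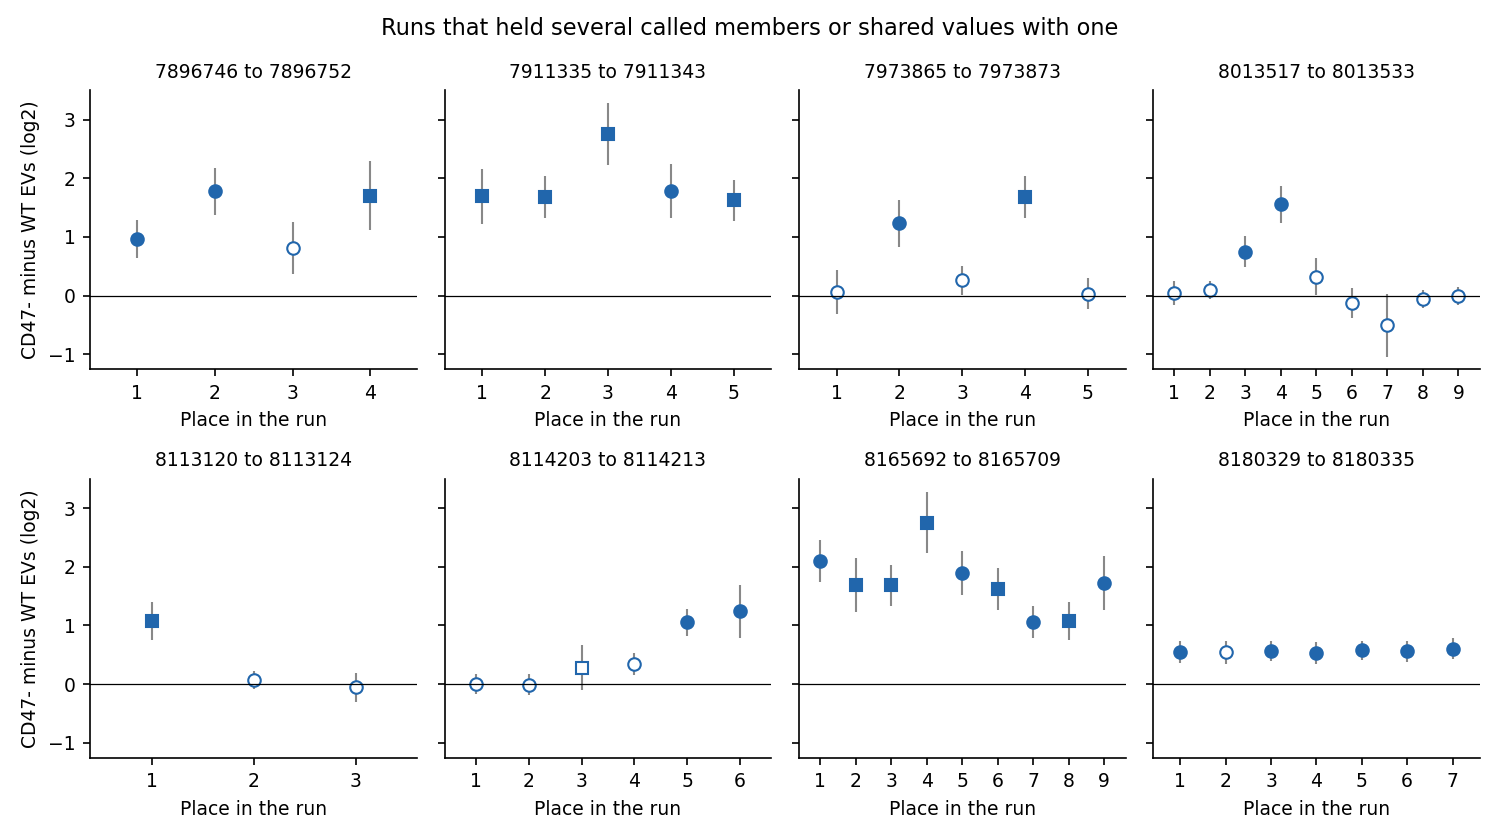
CD47- minus WT EVs (log2, y axis) of each member by its place in the run (x axis), with 95% confidence intervals, for the 8 runs outside the first that held several called members or shared the values of one; filled symbols passed limma at an adjusted p under 0.05, and squares had values identical to those of another probe set. All 5 and all 9 members of the runs at 7911335 and 8165692 are filled, the 7 members at 8180329 sit at one height, in the run at 7896746 the uncalled member also lies above 0, and in the other 4 runs called members stand beside members near 0.

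The longest runs after the first held no called members. The longest of them, 7995312 to 7995352, held 18 members between LOC162137 and ORC6, a subunit of the origin recognition complex, on chromosome 16. It was bright, with a median level of 8.52 and 16 of 18 members above the olfactory receptor 95th percentile, and 0 of them passed in any direction (0 also at an unadjusted p under 0.05). Its differences ranged from -0.12 to 0.08, and their 95% confidence intervals stayed between -0.33 and 0.33. The next 3 runs, 8132984 to 8133016 with 17 members, 8180238 to 8180253 with 16 and 8139776 to 8139798 with 12, had median levels of 3.54, 5.63 and 3.51, and limma called 0 members in them, with 1, 0 and 2 at an unadjusted p under 0.05.

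Number order mostly followed the genome for named probe sets, with breaks such as that at FAF2. Of 19460 probe sets with 1 symbol 19426 matched a RefSeq gene, and 97.5% of successive pairs were on the same chromosome. Within these pairs the gene start ascended in 96.9%, so number order also broke within chromosomes. Of the members outside the first run 7449 (94.7%) had named probe sets of the same chromosome on both sides. They are counted under that chromosome, although no position of the members themselves is known here. Against 100 probe sets with 1 symbol there were between 15.1 members counted under chromosome 19 and 54.2 under chromosome 13. The median difference of members lay below that of the probe sets with 1 symbol for all 23 chromosomes counted, by small amounts. The members' medians ranged from -0.06 for chromosome 15 to -0.00467 for chromosome 8. These 23 comparisons rest on the same 6 arrays and do not replicate each other. Over all members the median difference was -0.0132, and the members' median had an SD of 0.0143 between replicate arrays. Without WT replicate 3 the median difference was -0.0135 for members and -0.0103 for probe sets with 1 symbol. Called members were counted under 13 of the 23, most under chromosome 5 with 8 of 409 (1.96%). Of all members outside the first run 0.648% were called, and of all probe sets 0.544%.

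Neighboring members were only weakly alike, given as correlations across probe sets, which are not independent. In the first run successive members had r = 0.01 for level and -0.01 for difference over 4202 pairs. In the other runs the values were 0.22 and 0.43 over 2871 pairs, and 0.18 and 0.16 over the 2730 pairs in which neither member shared its values with another probe set. A member and the named probe set next to it had 0.11 and 0.06 over 9296 pairs, and successive named probe sets of different genes had 0.30 and 0.05 over 13738 pairs. Of the 51 called members outside the first run 10 had a called named probe set as nearest neighbor on either side, against 48 of all 7866 members there (0.610%), and for each of the 10 that was FAF2 or MPLKIP, at the edges of the excluded stretch.

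A few members read the same as a named gene. Member 7896693 had the values of CD69, an early activation marker of T cells, at 3.98, 4.16 and 4.26 in WT and 4.15, 4.40 and 4.31 in CD47- EVs. Member 7896691 had those of IL2RB, the beta chain of the interleukin-2 receptor, at 5.41, 5.54 and 5.38 in WT and 5.53, 5.25 and 5.17 in CD47- EVs. Member 7896694 had those of IL10RA, the ligand-binding chain of the interleukin-10 receptor, at 4.90, 4.83 and 4.63 in WT and 4.82, 4.92 and 4.74 in CD47- EVs. The groups overlapped in all 3, with differences of 0.15, -0.13 and 0.05, and 2 of the 3 lay below the olfactory receptor median throughout. Members 8180290 and 8180293 had the values of probe sets of CDK11B, a cyclin-dependent kinase, with differences of 0.13 and 0.16 (adjusted p = 0.82 and 0.76, limma).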

How the data were processed

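RNA from EVs was read on 6 human whole-transcript arrays (3 WT, 3 CD47-); the labeling protocol also calls the array a mouse array, and the human annotation was used. The deposited values are on a log2 scale and come from the authors' RMA summary, run in the Affymetrix Expression Console software (versions not given in the sources used here), which corrects background, normalizes by quantiles and summarizes probes. RMA compresses low levels, so small changes of dim probe sets are understated. Members were found through the platform annotation, and chromosomes of named genes through a RefSeq table by gene ID. limma 3.58.1 in R 4.3.3 (lmFit, eBayes) was fitted on all 33297 probe sets at once, without a filter and with Benjamini-Hochberg adjustment over all of them, and was tested on simulated data. Called means an adjusted p under 0.05. Named members were the 12 called with the largest difference in each direction whose groups did not overlap, the 8 brightest, the ends of the 5 longest runs, adjacent called members, their nearest named probe sets and probe sets with identical values. The members and lists were chosen with earlier results of these data known. Alternatives changed the scaling, variance model, filter and threshold and left out the first run or 1 array. Precision is limited by the number of arrays. No sequence of a member was given, so none is printed.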

Additional observations from a re-analysis of the deposited data

How the results depend on the processing

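The count of called members (112; 106 higher, 6 lower) moved with the settings as follows, in that order. Centering on the olfactory receptor probe sets, after which the median difference of all probe sets was 0.05, gave 190 (179, 11), the filter to probe sets above the olfactory receptor median 172 (162, 10), an adjusted p under 0.01 28 (26, 2), and unshared variances 0 (0, 0), with 1 probe set with 1 symbol called. Without the first run there were 51 (50, 1), and with identical values also counted once, a setting chosen after seeing the data, 45 (44, 1). A trended robust variance gave 11 lower. Further quantile normalization gave 79 (73, 6), of which 78 were among the 112. Of the named members it ended the calls of 7896304, 7896746, 7896752, 8013521, 8113120, 8114213, 8165707, 8180329 and 8180332. A replicate block gave 71 (68, 3). Over all probe sets, deviations of same-numbered arrays correlated at 0.0085, -0.0027 and -0.043. These values cover mostly uncalled probe sets, so they do not tell whether the numbers pair the arrays in the called members. The block ended the calls of 12 of the 40 called members followed below. It lowered the adjusted p of some others, such as 7896748 (from 0.00844 to 0.00473, limma). Leaving out 1 array gave 33 to 88 in all, 29 to 79 higher and 3 to 9 lower. Of the 112, the calls that remained were 38, 59 and 30 without WT replicates 1, 2 and 3 and 61, 32 and 32 without CD47- replicates 1, 2 and 3, and 22 remained in each of these 6 fits, 2 of them lower. In every fit with shared variance, a larger share of members than of probe sets with 1 symbol was called. Of 40 called members followed through each setting that tested them (the filter leaves out dim ones), 13 lost their call only with unshared variances. Among the 13, 7911339 and 8165698 share their values, and so do 7911337, 7973871 and 8165696. The groups did not overlap in any called member, so leaving out 1 array could not change a sign.

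The median difference of members (-0.01) was 0.043 after centering, and -0.02 to -0.00398 with 1 array left out. Their median level (4.63) was 6.64 above the olfactory receptor median and 4.51 without the first run. The share above the olfactory receptor 95th percentile (15.97%) was 8.53% for its 99th percentile, 35.4% for its median and 10.6% without the first run. Runs of strictly consecutive numbers were 7852 in place of 4996, the longest with 625 members and 7811 of them with 1 member. A tolerance of 0.01 left 266 members with shared values.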
